A study of Mus musculus with 4 samples.

Results

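The 10 genes described here encode subunits of the AMPA and NMDA classes of ionotropic glutamate receptor. They are 4 AMPA subunit genes, Gria1 to Gria4, and 6 NMDA subunit genes, Grin1, Grin2a, Grin2b, Grin2c, Grin2d and Grin3a. They were taken by symbol from the 32285 genes in the deposited single-nucleus tables, all 10 were found once, and their levels were described over cell classes and over clusters of neurons. The rule names the genes and uses no measured value, but the set was proposed with earlier results of these data known. By the identifiers in the files, Gria1 is ENSMUSG00000020524, Gria2 is ENSMUSG00000033981, Gria3 is ENSMUSG00000001986 and Gria4 is ENSMUSG00000025892. Among the NMDA genes, Grin1 is ENSMUSG00000026959, Grin2a is ENSMUSG00000059003, Grin2b is ENSMUSG00000030209, Grin2c is ENSMUSG00000020734, Grin2d is ENSMUSG00000002771 and Grin3a is ENSMUSG00000039579.

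The study profiled nuclear RNA of whole hypothalamus from aging mice of about 18 months by single-nucleus RNA sequencing, in which each nucleus carries a barcode and each captured RNA molecule a unique molecular identifier (UMI). There were 4 samples, 2 labelled control and 2 labelled transplanted, whose grafts were hypothalamus-type stem cells made from human pluripotent cells. Strain and sex are not given in the sources used here, and neither is what the control mice received. The title of the first sample under each label joins 2 animal codes, and whether nuclei of several animals were pooled there is not stated.

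The transplanted-labelled tables held the same nuclei as the control-labelled ones. Of the 4008 barcodes in control replicate 1, 3997 were also in transplanted replicate 1. Of the 2150 in control replicate 2, 2144 were also in transplanted replicate 2. Any other pair of tables had 4 barcodes in common. Within the same-nuclei pairs the gene totals differed by 0.236 and 0.240 of the binomial sampling variance, and across libraries by at least 19.3 times it. The 4 tables were therefore counted as 2 libraries, A (replicate 1) and B (replicate 2), and no effect of transplantation could be estimated for any subunit. In CPM, UMIs of the gene scaled to 1000000 UMIs in the group of nuclei, Gria1 stood at 358 in control and 357 in transplanted replicate 1, and at 651 and 646 in the replicate 2 pair. Grin2b stood at 491 and 489, and at 605 and 612. For all 10 genes the transplanted-labelled value was between 0.969 and 1.10 times the control-labelled one in both pairs, and the widest gap was that of Grin2c, with 28 and 31 UMIs. Every value below comes from the control-labelled tables, and n = 2 means these 2 libraries.

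AMPA receptors carry most of the fast excitatory current at central synapses. Each is an assembly of subunits from Gria1 to Gria4, and an edited Gria2 subunit makes the channel nearly impermeable to calcium. NMDA receptors open when glutamate and a co-agonist, glycine or D-serine, bind while the membrane is depolarised, and they pass calcium. They need the Grin1 subunit, which is joined by Grin2 subunits that set the kinetics and magnesium block, or by Grin3a, which lowers calcium permeability. In the hypothalamus these channels carry the excitatory input to neurons that control feeding, sleep, body temperature and pituitary output, and glia also carry some of them.

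Promoter sequence is shown for the 3 members whose levels followed 3 different cell classes: Grin1, which had at most 3 UMIs per library in each glial class, Grin2c, found mainly in astrocytes, and Gria4, shared by neurons and the oligodendrocyte lineage. The RefSeq table of promoters on GRCm38.p6 held 5 of the 10 genes. Each sequence is the 250 bases before the annotated start, 5′ to 3′ on the gene's strand, which was minus for all 3. Capitals mark the motifs searched on both strands, CACGTG (an E-box) and GGGCGG (a GC box), with overlapping matches counted separately.
Grin1, chr2:25319188-25319437: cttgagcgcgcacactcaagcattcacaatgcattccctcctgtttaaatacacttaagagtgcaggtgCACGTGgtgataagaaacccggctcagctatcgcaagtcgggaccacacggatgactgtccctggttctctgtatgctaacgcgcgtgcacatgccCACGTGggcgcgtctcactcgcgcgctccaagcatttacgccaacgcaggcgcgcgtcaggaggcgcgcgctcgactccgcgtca
Grin2c, chr11:115267244-115267493: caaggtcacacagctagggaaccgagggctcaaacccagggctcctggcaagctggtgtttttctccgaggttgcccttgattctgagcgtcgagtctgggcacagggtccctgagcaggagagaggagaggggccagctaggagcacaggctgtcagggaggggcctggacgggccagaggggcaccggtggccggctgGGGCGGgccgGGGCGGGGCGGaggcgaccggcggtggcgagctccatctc
Gria4, chr9:4796235-4796484: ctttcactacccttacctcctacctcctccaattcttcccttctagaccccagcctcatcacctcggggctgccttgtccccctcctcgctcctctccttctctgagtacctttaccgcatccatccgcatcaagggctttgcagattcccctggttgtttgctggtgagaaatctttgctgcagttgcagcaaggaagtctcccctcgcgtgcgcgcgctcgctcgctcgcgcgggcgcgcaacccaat
Grin1 had 2 E-boxes and no GC box. Grin2c had 3 GC boxes and no E-box, and Gria4 had neither. Over 32851 promoters of this length, 6.02% held an E-box and 32.7% a GC box. These matches describe letters in this window and were not set against any level.

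Library A held 8779880 UMIs and library B 4924563, with a median of 1813 and 2049 UMIs per nucleus. After doublet calling, 4002 and 2108 nuclei remained. The caller marked 0.150% of nuclei in library A, too few to count as a working filter, and 1.95% in library B. Nuclei were grouped into 19 clusters without the 10 subunits or any gene of the related lists below, so a subunit did not shape the groups it was compared over. Genes of hypothalamic peptides (Hcrt, Pmch, Avp and Oxt) led neuron clusters. By marker genes, 13 clusters were neurons, 1 each was astrocyte-like, oligodendrocyte-like, oligodendrocyte-precursor-like and microglia-like, and 2 stayed unnamed. Neurons made up 74.3% and 67.9% of nuclei, with medians of 2256 and 2630 UMIs. Astrocytes numbered 303 and 200 nuclei, oligodendrocytes 374 and 285, precursors 134 and 72, and microglia 55 and 46. Whether the libraries came from separate animals is stated only through their titles. The library term of the fits removes the overall difference between libraries for each gene. The p-values therefore rest on the scatter left over, by which differences between groups vary between these 2 libraries. In the fit over neuron clusters its size was shared in part over genes. In the fit over cell classes its size was taken from genes together. A gene's own disagreement between libraries thus did not enter its p-value there, however small that p-value was. That scatter may be technical.

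Neurons against glia was the first comparison, and it asked which subunit RNAs were higher in neurons than in the 4 glial classes averaged on a log scale. Of the 10 members, 9 passed the filter on low counts, and Grin2d did not. The filter took neurons and glia together, so Grin1 and Grin2a, near 0 in glia, could pass it only through neurons. Their higher calls were thus largely fixed in advance, as were those of such genes among all genes tested. In edgeR's quasi-likelihood test with Benjamini-Hochberg adjustment over 6476 genes, 8 were higher in neurons and 0 lower, where 32.3% of all genes tested were higher and 15.2% lower. The 8 were Gria1, Gria2, Gria3, Gria4, Grin1, Grin2a, Grin2b and Grin3a, and each was also higher in each library taken alone. At an unadjusted p under 0.05 the count lower was also 0 with edgeR, and DESeq2 called 1 lower, Grin2c (adjusted p = 0.0468). The average over glial classes hides the classes in which a subunit was as high as in neurons, which the next paragraphs give. Counts are not corrected for gene length, so each gene is compared only with itself across groups.

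Gria1, whose subunit is regulated at synapses by phosphorylation, was highest in astrocytes. It stood at 939 CPM in library A and 2014 in library B in astrocytes, at 362 and 645 in neurons, and at 26.2 to 50.9 in precursors, oligodendrocytes and microglia, where each library had 1 to 8 UMIs. Both astrocyte values were above both neuron values. As a share of its own neuron level, astrocyte Gria1 was 260% in library A and 312% in library B. Neurons were higher than averaged glia (edgeR adjusted p = 3.58e-39), and the fitted size is not given because it rests in part on classes at or under the floor of 3 UMIs per library.

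Gria2, the subunit that decides calcium entry, was high in 3 classes. Neurons had 1866 and 1431 CPM, precursors 1604 and 1232, and astrocytes 1325 and 1257. Neurons were above precursors in each library, though precursor and neuron values overlapped between libraries. Precursors overlapped with astrocytes as well, while both neuron values were above both astrocyte values. Oligodendrocytes had 143 and 89.7 CPM and microglia 131 and 62.9, below all of the former. Neurons were higher than averaged glia (edgeR adjusted p = 7.33e-69), a difference whose fitted size again rests in part on microglia near the floor.

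Gria3 and Gria4 were high in neurons and precursors, not in astrocytes. Gria3 had 735 and 540 CPM in neurons and 779 and 621 in precursors, so precursors were higher in each library while the values of the classes overlapped between libraries. In astrocytes it had 5 and 4 UMIs (20.1 and 22.8 CPM), in oligodendrocytes 2 and 8 UMIs, and in microglia none. Gria4 had 1413 and 1130 CPM in neurons and 1611 and 1222 in precursors, again higher in each library and overlapping between them. Oligodendrocytes held an intermediate Gria4 level of 472 and 373 CPM from 132 and 79 UMIs, below both neuron values and above both astrocyte values of 20.1 and 51.2. Microglia had no UMI of Gria3 or Gria4, and with 0 UMIs a level of up to 78.7 CPM (library A) or 94.4 CPM (library B) remains possible. These limits, like every interval here, cover counting error only.

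Grin1, the subunit every NMDA receptor needs, was found almost only in neurons, at 226 and 246 CPM. Each glial class had 0 to 3 UMIs of it per library. Grin2a, which gives fast-decaying NMDA currents and rises with maturation in many brain regions, had 204 and 287 CPM in neurons. It had 2 and 1 UMIs in astrocytes and 0 in the other 3 glial classes. For precursors, 0 UMIs allow up to 19.6 and 30.5 CPM. Neurons were higher than averaged glia for both (edgeR adjusted p = 1.46e-59 for Grin1 and 1.03e-70 for Grin2a). The fitted size is not given because it rests on groups at 0.

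Grin2b, which gives slower currents and dominates early in development, had 538 and 683 CPM in neurons. Astrocytes had 136 and 125 CPM from 34 and 22 UMIs, and the other glial classes 0 to 4 UMIs per library. Grin2d, a slow-decaying subunit typical of the diencephalon and brainstem, was low. It had 35.3 and 42.1 CPM in neurons and 26.2 and 40.7 in precursors, the latter from 4 UMIs in each library, and these values overlapped.

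Grin2c, best known from cerebellar granule cells and astrocytes, was found mainly in astrocytes. Astrocytes had 76.3 and 125 CPM from 19 and 22 UMIs, while the 2975 and 1432 neurons had 6 and 11 UMIs, or 0.772 and 2.66 CPM. Both astrocyte values were above every other class value. Precursors and microglia had 0 UMIs. The microglial floor of 78.7 CPM in library A was above the astrocyte value, and that of 94.4 CPM in library B was below it. Microglia therefore cannot be set apart from astrocytes in both libraries at this depth.

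Grin3a was highest in precursors, at 629 and 428 CPM from 96 and 42 UMIs. Neurons followed with 209 and 181 CPM and astrocytes with 96.3 and 68.3. The 3 classes did not overlap. Oligodendrocytes had 0 and 2 UMIs and microglia none.

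**Figure D1:**
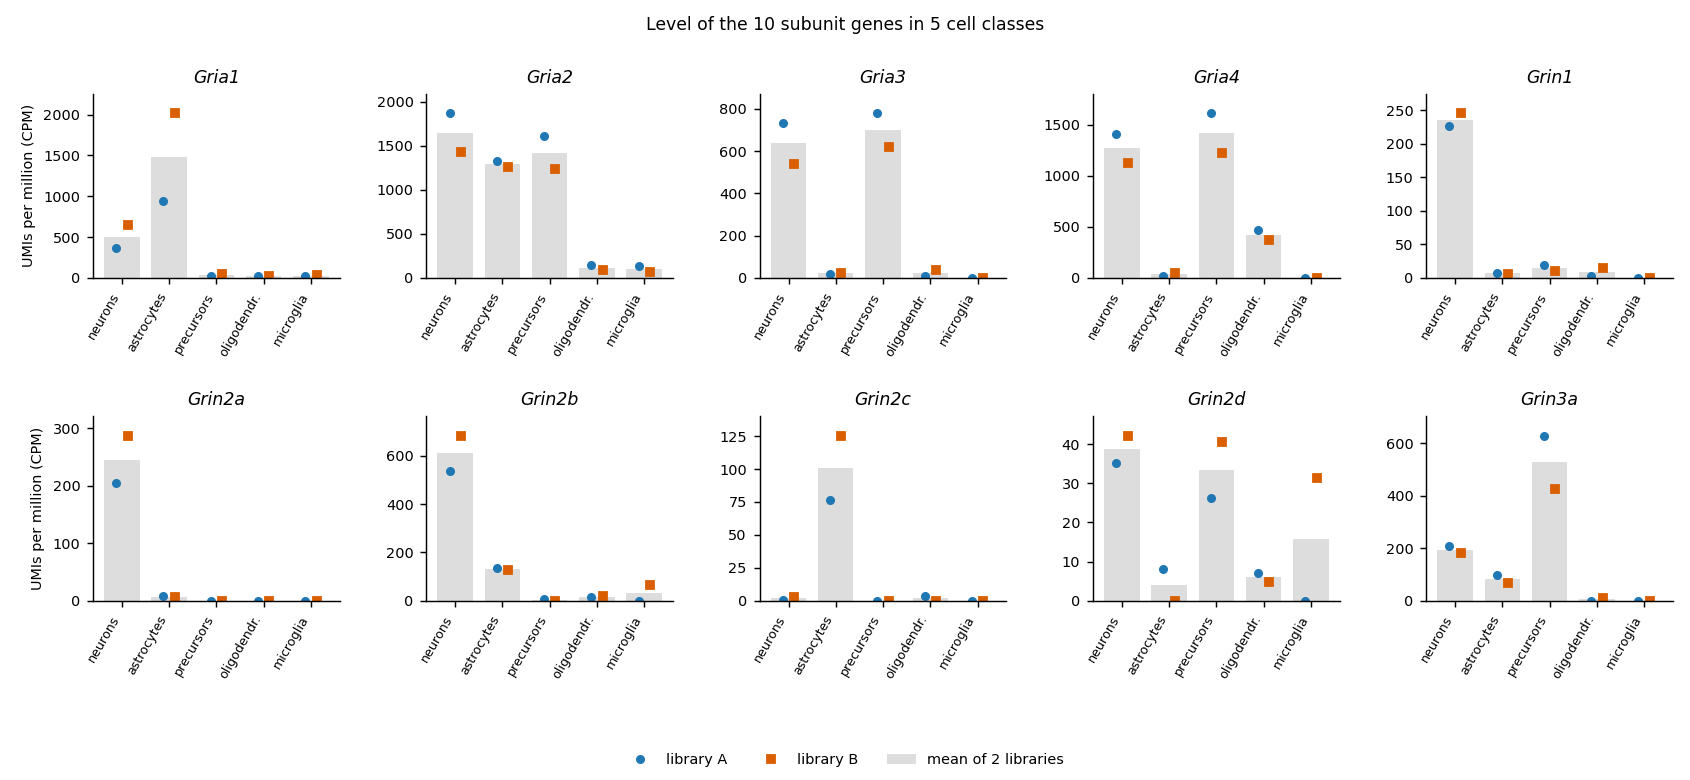
CPM of each subunit gene (y axis, from 0, with its own scale per gene) in 5 cell classes (x axis; precursors are oligodendrocyte precursors), with library A as circles, library B as squares and bars at their mean. Gria1 and Grin2c peak in astrocytes and Grin3a in precursors, while Grin1, Grin2a and Grin2b peak in neurons.

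The second comparison set each glial class against the average of the other 3, with neurons left out of the contrast. In astrocytes, 5 of the 9 tested members were higher (Gria1, Gria2, Grin2b, Grin2c and Grin3a) and 0 lower, where 20.8% of genes tested were higher and 6.93% lower in edgeR. In precursors, 4 were higher (Gria2, Gria3, Gria4 and Grin3a) and 1 lower (Grin2b, 1 and 0 UMIs, adjusted p = 0.0393), against 20.6% and 5.03% of all genes. In oligodendrocytes, 1 was higher (Gria4) and 2 lower (Gria1 and Gria2), against 20.1% and 9.51%. In microglia, 0 were higher and 5 lower (Gria1, Gria2, Gria3, Gria4 and Grin3a), against 12.1% and 16.7%. The adjusted p was 5.71e-141 for Gria1 and 1.43e-47 for Gria2 in astrocytes, and 1.61e-47 for Gria2 in precursors. Fitted sizes are not given, since they rest in part on classes at or near the floor of 3 UMIs. All 18 calls had the same sign in each library. Grin2c could pass the low-count filter only through astrocytes, so its higher call there was largely fixed in advance.

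RNA released from neurons can add UMIs to glial barcodes, so 15 neuron marker genes were measured in the same way. Their median level in glia was between 2.96% and 12.9% of the level in neurons over the 4 classes and 2 libraries. In precursors, Gria2 stood at 86.0% and 86.1% of its neuron level, Gria3 at 106% and 115%, Gria4 at 114% and 108%, and Grin3a at 301% and 237%. At most 1 of the 15 markers reached such a share in precursors (Elavl4 at 113% in library A, Gad1 at 118% in library B). Grin1, Grin2a and Grin2b were at 0 to 8.69% of their neuron level in the same precursors. In astrocytes, Gria1, Gria2 and Grin2c were above all 15 markers in both libraries. Astrocyte Grin3a, at 46.1% and 37.8%, and Grin2b, at 25.4% and 18.3%, were matched or passed by up to 2 markers. Astrocyte Gria3, Gria4, Grin1 and Grin2a, at 1.42% to 4.53%, were passed by 10 to 13 markers. In oligodendrocytes, Gria4 stood at 33.4% and 33.0% of its neuron level, with 3 and 2 markers at or above it. The microglial values of Gria1 and Gria2, from 1 to 5 UMIs, were among the markers' values. The part of free RNA in each low glial level was not tested further.

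**Figure D2:**
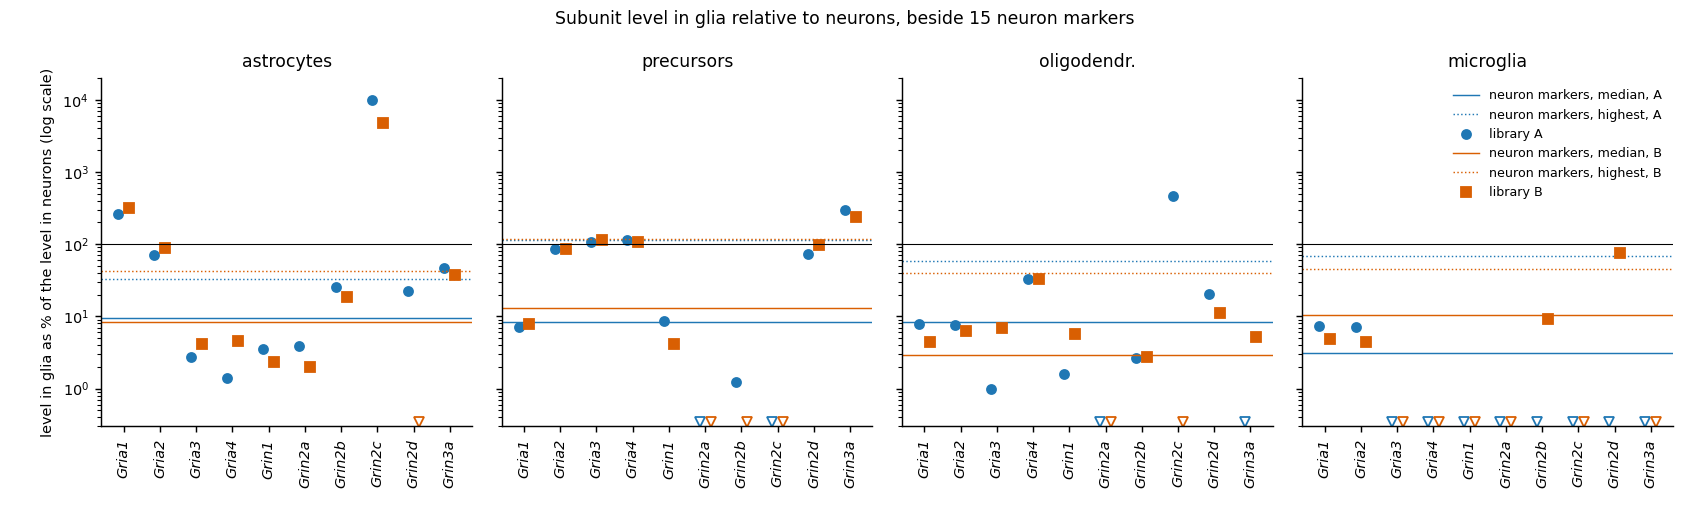
Level of each subunit gene in 4 glial classes as a percentage of its level in neurons of the same library (log axis; circles library A, squares library B; open triangles at the bottom mark 0 UMIs). Solid lines give the median and dotted lines the highest of 15 neuron markers, and the black line is 100%. Gria1 and Grin2c in astrocytes and Gria3, Gria4 and Grin3a in precursors lie above 100% in both libraries; Grin2c in neurons rests on 6 and 11 UMIs.

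The share of nuclei with at least 1 UMI was read after every nucleus was thinned to 500 UMIs, since neuron nuclei held more UMIs. Gria1 was then seen in 36.0% and 64.5% of astrocytes and in 15.4% and 23.5% of neurons (unthinned, 49.2% and 76.5% against 48.7% and 65.9%). In microglia, with median depths of 623 and 684.5 UMIs, Gria1 was seen in 1.82% and 2.17%. The share of nuclei with Gria2 was 47.5% and 41.5% in astrocytes, 46.3% and 44.4% in precursors, and 57.6% and 50.1% in neurons. Gria4 was seen in 19.3% and 17.2% of oligodendrocytes, and in 1.32% and 0.5% of astrocytes. Grin3a was seen in 26.1% and 16.7% of precursors and 9.14% and 8.73% of neurons (unthinned, 45.5% and 37.5% against 29.6% and 30.7%), and in no microglial nucleus. Median UMIs per nucleus were 752 and 808 in astrocytes, below the neuron medians given above. For Gria1, Gria4 and Grin3a the thinned shares put the named classes in the order that CPM did.

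An unnamed cluster of 116 and 56 nuclei, led by Col23a1 and Fndc3c1, also held subunit RNA. All 12 tanycyte markers exceeded their average in the remaining clusters by more than 2-fold. So did 7 of 8 ependymal, 8 of 8 endothelial, 6 of 7 mural, 4 of 6 fibroblast and 4 of 5 blood markers. It was given no cell type, since at most 1 marker of any non-neuron class was among its 10 leading genes, where 3 were needed. Gria1 stood there at 144 and 290 CPM, Gria2 at 342 and 256, and Gria3 at 225 and 341. Grin1 and Grin2a had 0 UMIs in both libraries. Grin3a was at 397 CPM from 44 UMIs in library A and at 34.1 CPM from 2 UMIs in library B, so its level there depends on the library. The other unnamed cluster, of 45 and 17 nuclei, carried neuron and oligodendrocyte genes together, and the astrocyte marker Slc4a4 was also among its leading genes. Both unnamed clusters were left out of the class comparisons.

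Across neurons, 11 clusters had at least 20 nuclei in each library and were compared with each other. In the edgeR F-test over them, 8 of the 9 tested members differed between clusters, where 28.7% of 7782 genes did. Grin2d did not pass (adjusted p = 0.136), and Grin2c was below the filter. Each cluster was then set against the average of the other 10. Over all pairs of a member and a cluster, 19 were higher and 14 lower, where 4.95% and 2.55% of all pairs of a gene and a cluster were. All 33 had the same sign in each library. These counts rest on the term for the library: without it, 5 members passed the F-test, and 4 pairs were higher and 5 lower. Over the 11 clusters, ordered by mean level, many neighbours changed places between libraries. Of the 10 neighbouring pairs, 3 stood in the same order in both libraries for Gria1 and Grin1, 4 for Gria2, Grin2a and Grin3a, and 5 for Gria3, Gria4 and Grin2b. Fewer had values that did not overlap between libraries: 0 for Gria1 and Gria2, 1 for Gria4 and Grin2b, 2 for Gria3, Grin1 and Grin2a, and 3 for Grin3a.

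**Figure D3:**
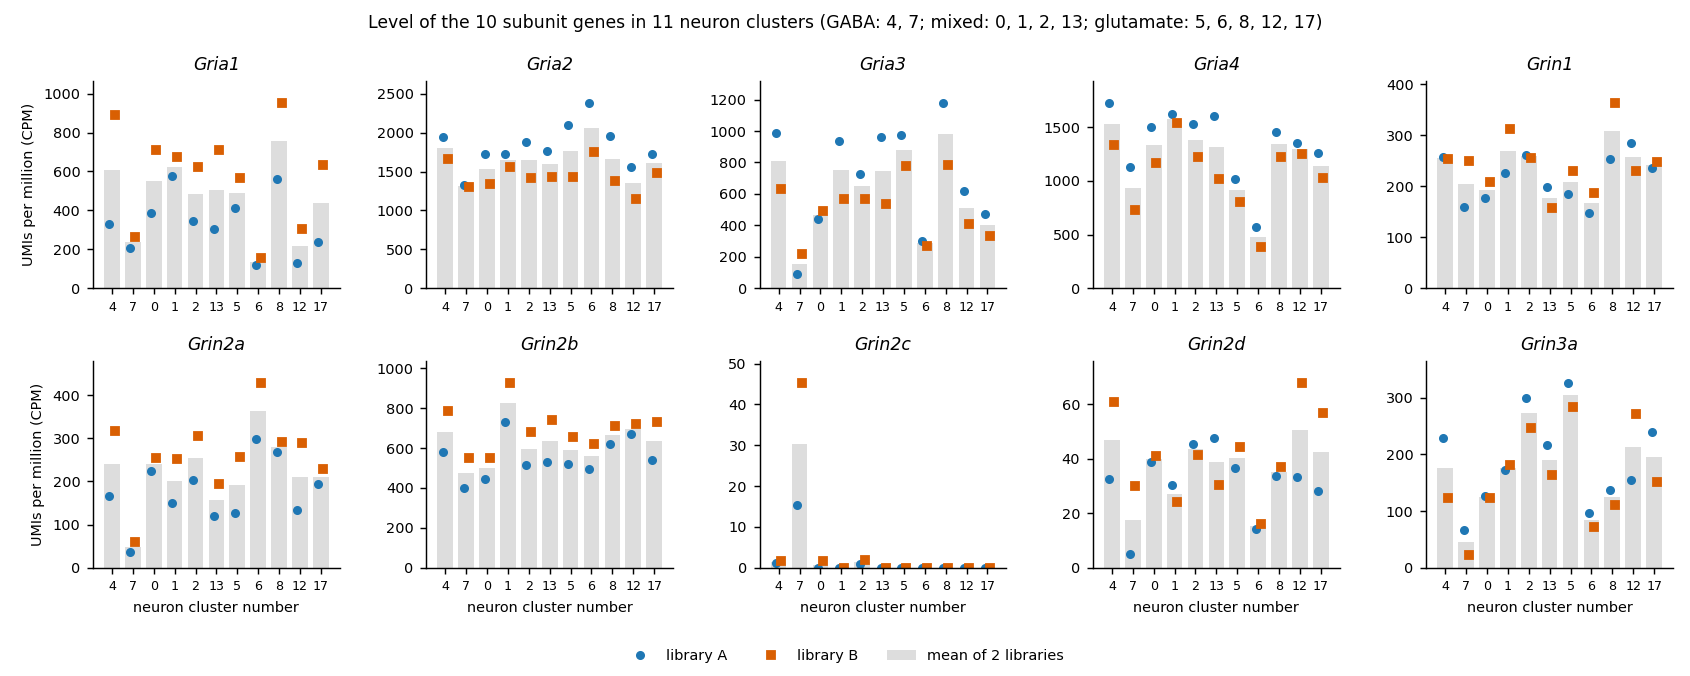
CPM of each subunit gene (y axis, from 0, with its own scale per gene) in 11 neuron clusters (x axis), with library A as circles, library B as squares and bars at their mean. By mean, cluster 7 is lowest for Gria3, Grin2a and Grin3a, cluster 6 is lowest for Gria1 and Gria4 and highest for Gria2 and Grin2a, and cluster 8 is highest for Gria1, Gria3 and Grin1.

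Among the AMPA genes, Gria2 was the most even, with a mean from 1317 CPM in cluster 7 to 2065 in cluster 6, a ratio of 1.57. Gria1 ranged 5.52-fold, from 137 CPM in cluster 6 to 757 in cluster 8. Gria3 ranged 6.28-fold by mean, from 156 in cluster 7 to 979 in cluster 8, but 12.6-fold in library A and 3.57-fold in library B. Gria4 ranged 3.31-fold, from 477 in cluster 6 to 1580 in cluster 1. Among the NMDA genes, Grin1 ranged 1.85-fold (cluster 6 to cluster 8) and Grin2b 1.74-fold (cluster 7 to cluster 1). Grin2a ranged 7.52-fold, from 48.3 CPM in cluster 7 to 363 in cluster 6. Grin3a ranged 6.78-fold by mean, from 44.9 in cluster 7 to 305 in cluster 5, with 4.85-fold in library A and 12.5-fold in library B, where cluster 7 had 3 UMIs. Grin1, Gria2 and Grin2b thus had narrower ranges than Gria1, Gria3, Grin2a and Grin3a, a difference that was not tested.

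Cluster 6, a glutamate cluster led by Myo5b, Cpne9 and Col19a1, had 6 calls. Gria2 was higher there, with 2377 and 1753 CPM (log2 difference 0.50 ± 0.09, SE, edgeR adjusted p = 4.68e-05). Its Gria1 was 121 and 153 CPM, against 362 and 645 in all neurons (-1.53 ± 0.18, adjusted p = 7.60e-10). Its Gria4, at 571 and 384 CPM, was the lowest of the 11 clusters in both libraries (-1.26 ± 0.12, adjusted p = 5.28e-13). Gria3 (-0.90 ± 0.16) and Grin3a (-0.81 ± 0.20) were lower as well, and Grin2a was higher at 298 and 428 CPM (1.09 ± 0.13, adjusted p = 3.33e-09).

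Cluster 7, a GABA cluster led by Vipr2 and Prok2, had 5 calls, all lower. Grin2a had 36.2 and 60.4 CPM there, from 7 and 8 UMIs, the lowest of the 11 clusters in both libraries (log2 difference -2.25 ± 0.31, SE, edgeR adjusted p = 8.79e-08). Gria3 had 93.0 and 219 CPM (-2.08 ± 0.23, adjusted p = 1.03e-10) and Grin3a 67.2 and 22.6 CPM (-1.84 ± 0.33, adjusted p = 2.28e-05). Gria1 (-0.84 ± 0.21) and Grin2b (-0.43 ± 0.14) were lower by less. Cluster 7 also held 3 of the 6 and 6 of the 11 neuronal Grin2c UMIs, at 15.5 and 45.3 CPM, from 106 and 69 nuclei. Outside it no fitted neuron cluster had more than 3 Grin2c UMIs in a library.

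Cluster 8, a glutamate cluster led by Hmcn2 and Gpr149, had 4 calls, all higher. Gria1 had 563 and 950 CPM (log2 difference 1.01 ± 0.12, SE, edgeR adjusted p = 3.20e-10) and Gria3 1176 and 782 CPM (1.001 ± 0.11, adjusted p = 3.13e-10). Grin1 was at 254 and 363 CPM (0.47 ± 0.12, adjusted p = 0.00434) and Grin2a at 267 and 292 (0.69 ± 0.13). It was the only cluster of the 11 with a higher call for Grin1.

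Cluster 5, led by Pmch and Hdc, had the highest Grin3a of the 11, at 326 and 284 CPM (log2 difference 1.002 ± 0.17, SE, edgeR adjusted p = 1.03e-05). Gria3 was higher there (0.72 ± 0.14) and Gria4 lower, at 1019 and 807 CPM (-0.43 ± 0.12, adjusted p = 0.0115). At leiden resolution 2, Pmch and Hdc led separate clusters, so cluster 5 levels are not credited to either neuron type. The Pmch-led cluster held 18 and 16 nuclei and the Hdc-led cluster 29 and 2, against 149 and 48 in cluster 5. They can therefore make up only a part of cluster 5, and where its other nuclei went was not followed. Slc17a6 and Slc32a1 were 188 and 17.1 CPM in cluster 5. They were 55.4 and 63.3 in the Pmch-led and 29.2 and 29.2 in the Hdc-led cluster, values that rest on these few nuclei. Cluster 2, the largest, led by Ebf2, was also higher for Grin3a, at 299 and 246 CPM (0.91 ± 0.11, adjusted p = 4.15e-10), and for Grin2a (0.40 ± 0.11) and Gria4 (0.29 ± 0.09). Cluster 1, led by Lmo7 and Sst, was higher for Gria1, Gria3, Gria4 and Grin2b, the last at 728 and 926 CPM (0.44 ± 0.11, adjusted p = 0.00586). Cluster 4, a GABA cluster led by Meis2 and Pappa, was higher for Gria1, Gria3 and Gria4, by 0.43 to 0.62. Cluster 0, led by Hcrt, Gal and Trh, was lower for Grin1 (-0.37 ± 0.12), Grin2b (-0.44 ± 0.10) and Grin3a (-0.47 ± 0.14). Hcrt, Gal and Trh also led separate clusters at leiden resolution 2, so cluster 0 levels are not credited to any of these neuron types. Cluster 12, led by Ebf3 and Tafa1, was lower for Gria1 (130 and 305 CPM, -1.09 ± 0.21), and cluster 13, led by Zfp804b, higher for Gria3 (0.52 ± 0.14). Cluster 17, led by Lmx1a, had no call. A neuron cluster of 29 and 19 nuclei, led by Avp and Oxt, was too small for the fit; its Grin3a was 517 and 417 CPM, above all 11 fitted clusters, and its Gria2 1004 and 536 CPM, below the lowest of them in each library.

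GABA neuron clusters were set against glutamate ones in the third comparison. By the ratio of Slc32a1 to Slc17a6, the transporters that load GABA and glutamate into vesicles, 2 clusters were GABA (4 and 7), 5 glutamate (5, 6, 8, 12 and 17) and 4 mixed. The mixed clusters stayed out of the contrast, among them the largest, cluster 2 (747 and 496 nuclei) and cluster 0 (597 and 241). The contrast thus covered a minority of the neurons in each library. In edgeR, 1 of 9 tested members was higher on the GABA side, Gria4 (log2 difference 0.26 ± 0.09, SE, adjusted p = 0.0409), and 3 were lower, where 5.74% and 5.68% of genes were. The 3 were Grin2a (-1.23 ± 0.19, adjusted p = 5.76e-07), Grin3a (-0.87 ± 0.20) and Gria3 (-0.74 ± 0.15). The 2 GABA clusters did not share this pattern. Gria3 stood at 986 and 634 CPM in cluster 4 and at 93.0 and 219 in cluster 7, and Grin2a at 165 and 317 against 36.2 and 60.4. Without cluster 7 the calls became 3 higher and 0 lower, with Gria3 higher (0.50, adjusted p = 0.00505), Grin2a at -0.093 (adjusted p = 0.844) and Grin3a at 0.064. Without cluster 4 they became 0 higher and 5 lower. All 3 lower calls were thus lost without cluster 7, and the direction of Gria3 turned. The higher call for Gria4 was lost without the term for the library, without the low-count filter and with the transplanted-labelled tables of the same nuclei.

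The composition of the AMPA RNA, the share of each gene in the UMIs of Gria1 to Gria4, separated the cell classes. In neurons, Gria2 took 42.6% of 33998 UMIs in library A (exact 95% interval 42.1 to 43.2%) and 38.2% of 15469 in library B (37.4 to 39.0%). Gria4 took 32.3% and 30.2%, Gria3 16.8% and 14.4%, and Gria1 8.27% and 17.2%. In astrocytes, Gria1 took 40.8% (36.7 to 44.9%) in library A and 60.2% (56.1 to 64.2%) in library B, and Gria2 57.5% and 37.6%. In precursors, Gria2 took 39.9% and 39.4%, Gria4 40.1% and 39.1%, and Gria3 19.4% and 19.9%, while Gria1 took 0.651% (0.178 to 1.66%) and 1.63% (0.531 to 3.76%). In oligodendrocytes, Gria4 took 72.5% of 182 UMIs (65.4 to 78.9%) and 70.5% of 112 (61.2 to 78.8%). Since longer genes can yield more UMIs, a share is read across classes and not between genes.

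Within neurons, the Gria2 share was highest in cluster 6, at 70.5% (68.4 to 72.5%) and 68.6% (64.8 to 72.2%), against medians over the 11 clusters of 42.5% and 36.9%. The Gria3 share was lowest in cluster 7 in both libraries, at 3.38% (2.01 to 5.28%) and 8.68% (5.89 to 12.2%). For the NMDA genes, Grin2a took 27.5% of the UMIs of Grin2a and Grin2b over all neurons in library A (26.4 to 28.7%) and 29.6% in library B (28.2 to 31.0%). This share ran from 8.33% (3.42 to 16.4%) and 9.88% (4.36 to 18.5%) in cluster 7 to 37.5% (33.0 to 42.2%) and 40.8% (34.7 to 47.0%) in cluster 6. In both libraries the intervals of these 2 clusters, which cover counting error only, did not overlap. The 2 were picked as the lowest and highest of the 11, which favours such a gap, so it is a description and no test.

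**Figure D4:**
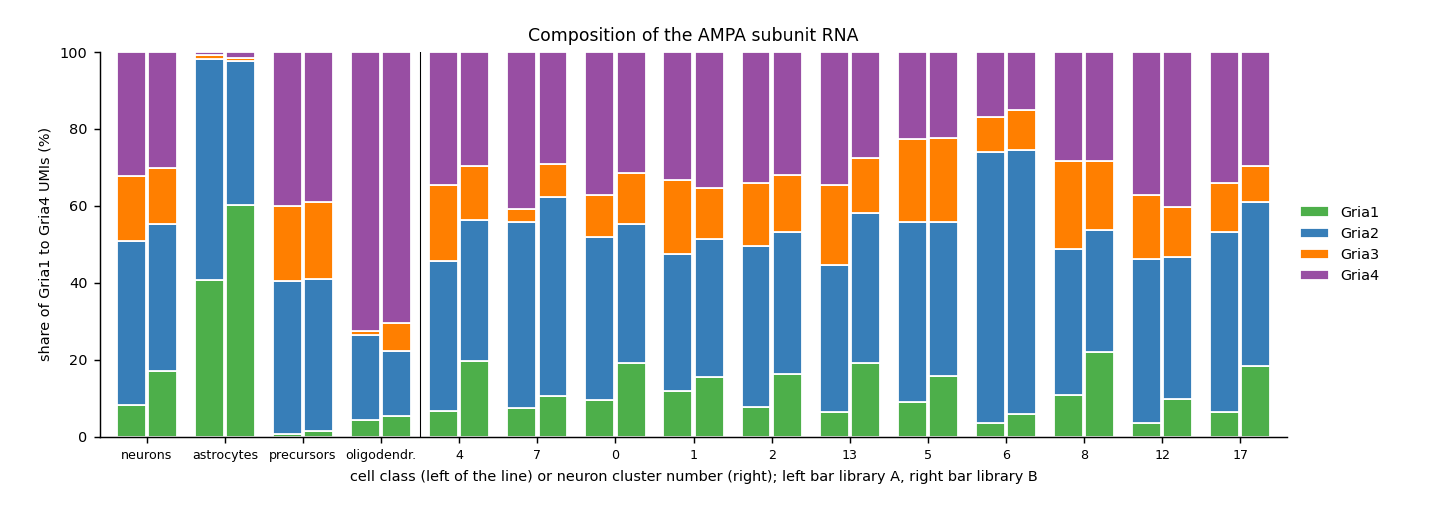
Share of Gria1, Gria2, Gria3 and Gria4 in the UMIs of these 4 genes (y axis, %), stacked, in 4 cell classes and 11 neuron clusters (x axis; left bar library A, right bar library B). Of the 4 classes, astrocytes have the highest Gria1 share and oligodendrocytes the highest Gria4 share, and cluster 6 has the highest Gria2 share of the 11 neuron clusters in both libraries.

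The 2 libraries differed in the subunits in a regular way. Gria1 was higher in library B in 11 of 11 neuron clusters, with 361 CPM in library A and 652 in library B over them, a ratio of 1.81. It was also higher in library B in astrocytes (939 and 2014 CPM) and in the Col23a1-led cluster (144 and 290, from 16 and 17 UMIs). Grin2a (ratio 1.42) and Grin2b (1.27) were higher in library B in 11 of 11 clusters too. Gria2 (0.774) and Gria4 (0.805) were higher in library A in 11 of 11, and Gria3 (0.739) and Grin3a (0.859) in 9 of 11. Among 1544 genes with at least 500 UMIs in these clusters of each library, 14.9% were higher in library B in at least 10 of the 11 clusters and 23.5% were higher in library A. The median ratio over these genes was 0.980, and 1.10% of them had a ratio as high as that of Gria1. Each library is 1 sample and the clusters share it, so this has no test. Median UMIs per nucleus and the share of neurons also differed between the libraries, and their part in it was not tested.

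**Figure D5:**
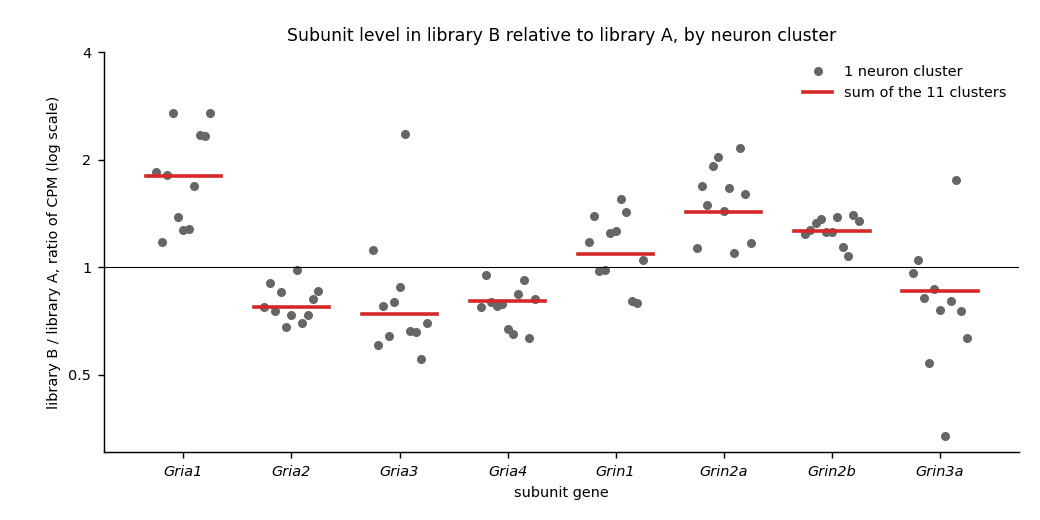
Ratio of CPM in library B to library A (y axis, log scale) for the 8 subunit genes with at least 500 UMIs in neurons of each library (x axis); each point is 1 of 11 neuron clusters and each bar the sum over them. All 11 points lie above 1 for Gria1, Grin2a and Grin2b, and below 1 for Gria2 and Gria4.

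Other genes of the glutamate synapse were followed as lists. Of 17 genes for AMPA receptor partners, 11 were tested in neurons against glia, and 10 were higher and 0 lower in edgeR, where 32.3% of all genes tested were higher and 15.2% lower. By p, they were led by Shisa9, an auxiliary subunit (240 and 368 CPM in neurons and 0 UMIs in microglia), and Cacng2, which carries AMPA receptors to synapses (78.8 and 94.7 CPM in neurons and at most 2 UMIs per library in each glial class). Genes such as Cacng2 could pass the low-count filter through neurons alone, so their higher calls were largely fixed in advance. The median fitted log2 difference over the 11 was 3.97, and over all genes 0.21. This median and the list medians that follow include genes at or near 0 in a glial class, whose fitted size depends on the prior count of the fit, so they are no exact sizes. Of 20 postsynaptic scaffold genes, 15 were tested, with 14 higher (median 2.61), among them Dlg2 (2.61 ± 0.10, SE) and Grip1, which binds Gria2 and Gria3 subunits (760 and 891 CPM in neurons, 52.2 and 11.4 in astrocytes). The single lower one was Dlg1 (-0.47 ± 0.13, edgeR adjusted p = 0.00133), which stood at 316 and 231 CPM in neurons and 329 and 199 in astrocytes. Of 9 genes for making or moving NMDA co-agonists, of which Slc7a10 is also among the astrocyte markers, 6 were tested, with 1 higher and 1 lower (median 0.48). Srr, which makes D-serine, was higher in neurons (edgeR adjusted p = 0.0182), at 51.4 and 57.9 CPM against 44.2 and 11.4 in astrocytes. Phgdh, which starts serine synthesis, was lower, with 0.772 and 0.727 CPM in neurons and 64.2 and 74.0 in astrocytes. All 3 RNA editing genes were higher in neurons (median 3.21). Adarb1, whose enzyme edits Gria2 RNA, had 112 and 105 CPM in neurons, and Adarb2 had 472 and 622, though Adarb2 was at 1480 and 1823 in precursors. Of 8 kainate, delta and Grin3b genes, 7 were tested and all 7 were higher (median 2.84). They were led by Grik2, at 2596 and 2039 CPM in neurons and 1735 and 1507 in precursors, and Grid1, at 645 and 909 in neurons and 812 and 1059 in precursors.

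Between neuron clusters, the F-test passed for 9 of 16 tested AMPA partners, 9 of 20 scaffold genes, 2 of 3 RNA editing genes, 6 of 7 other glutamate channels and 0 of 3 co-agonist genes, where 28.7% of all genes did. On the GABA side against the glutamate side, 4 of the 7 other glutamate channels were lower and 1 higher, where 5.74% of all genes were higher and 5.68% lower. There, 4 scaffold genes were lower, 2 AMPA partners were lower and 1 higher, and 2 of the 3 RNA editing genes were lower (median -0.64). These counts were not recomputed without cluster 7.

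The genes most alike to each member over the 11 neuron clusters were ranked by the lower of the Pearson correlations of log2(CPM + 5) in the 2 libraries, among 1588 genes. The points share library and depth, so the values are descriptions. Gria1 was most like Dlgap2, a postsynaptic scaffold gene (0.86 and 0.96), and Gria2 most like Tnr, a matrix glycoprotein gene (0.83 and 0.76). Gria3 was most like Fam189a1 (0.90 and 0.87), and Gria4 most like Unc5d, a netrin receptor gene (0.85 and 0.89). Grin1 was most like Grm5, a metabotropic glutamate receptor gene (0.73 and 0.74), and Grin2a most like Cntnap5c (0.95 and 0.94). Grin2b was most like Dpp10, a potassium channel partner (0.82 and 0.77), and Grin3a most like Focad (0.87 and 0.87). In second place came Fstl4 for Gria1, Nedd4l for Gria2, Garnl3 for Gria3, Plppr1 for Gria4, Casc4 for Grin1, Galnt17 for Grin2a, Lrrc7 for Grin2b and Fstl5 for Grin3a. Grin2c and Grin2d had too few UMIs to be ranked. The same correlation, taken for a member between the 2 libraries over the 11 clusters, was 0.95 for Gria4 and 0.91 for Gria3 and Grin2a. It was 0.68 for Gria2, 0.49 for Grin1 and 0.41 for Grin2d. It describes levels and not the order of clusters, in which many neighbours changed places.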

How the data were processed

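The authors deposited raw UMI counts for every gene and nucleus, as Cell Ranger matrices per the file headers; the libraries were 10x 3′ version 3.1, per the labels' protocols. Cell Ranger 5.0.1 and the build GRCh38 are named in the submitters' processing notes, although the gene identifiers are those of mouse. The mouse build, the treatment of intronic reads and how barcodes were chosen are not given in the sources used here. Nuclear RNA holds much unspliced RNA, so gene length and internal priming can shape counts. A filter of 300 genes and 5% mitochondrial UMIs removed 0 nuclei, and scrublet doublets were dropped.

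Clusters were made in scanpy 1.11.5 (3000 variable genes, 40 components, 20 neighbours, leiden resolution 1) and named from marker lists. Counts were summed per library and class or cluster (at least 20 nuclei in each library). They were tested with edgeR 4.0.16 (R 4.3.3, quasi-likelihood, TMM, filterByExpr, library as a term) with Benjamini-Hochberg adjustment over all genes at 0.05. Only the comparison of neurons with glia was tried on simulated counts, which held no library effect. The fits over neuron clusters were not. DESeq2 1.42.0 was an alternative. Groups were paired by library because each library supplied nuclei to all of them. Floors are 3 UMIs per library.

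The members and lists were chosen with earlier results of these data known. Named were all 10 subunits, per list the 2 genes of smallest p in each direction in neurons against glia, and the 2 genes most like each subunit. The parts of the contrast left out in turn were added after seeing the data.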

Additional observations from a re-analysis of the deposited data

How the results depend on the processing

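Of 107 alternative values of the main counts and shares, 88 stayed within the set margin. For the subunit shares with 1 library left out this was so by construction. DESeq2 called 1 member lower in neurons against glia in place of 0. Without the replicate block (the library term) the F-test over clusters passed 5 members, pairs of a member and a cluster fell to 4 higher and 5 lower, and GABA against glutamate had 0 higher; the cause was not tested. The GABA contrast was the least stable. Its count higher was 0 with no low-count filter, with the transplanted-labelled tables, and without glutamate cluster 5 or 6. Its count lower was 1 at leiden resolution 2, and nuclei with at least 1000 UMIs gave 2 higher and 1 lower. Without GABA cluster 4 it gave 0 and 5, and without cluster 7 it gave 3 and 0. Unthinned shares of nuclei were larger, by construction: 56.2% of astrocytes with Gria2, 23.2% of oligodendrocytes with Gria4 and 41.5% of precursors with Grin3a.

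The 656 alternative values of single genes include plain differences with 1 library left out, which have no threshold and count as kept by construction. Direction was followed only for genes called before or after the change. Turns in other genes are left out, such as Gria2 in GABA against glutamate (plain log2 difference -0.26 in library A and 0.048 in library B). Of the 656, 613 counted as kept and 6 turned direction. These were Grin2c in neurons against glia with DESeq2 (-1.97), Gria3 in oligodendrocytes with at least 1000 UMIs (-3.81), where microglia dropped out of the classes, and 4 values of GABA against glutamate: Gria3 (0.50) and Grin3a (0.064) without cluster 7, Gria4 without cluster 4 (-0.091), and Grin3a with at least 1000 UMIs (0.0065). Leaving out a library leaves 1 sample with no spread, so no test was made there. Depth limits the microglia most, where 3 UMIs are 78.7 and 94.4 CPM.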
